A study of Homo sapiens with 12 samples.

Results

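The interferon-stimulated genes described here are 44 genes that a cell turns on when interferon signals, chosen by name and found in the deposited count tables of a breast cancer cell experiment. All 44 had counts among the 27412 genes of those tables, 43 passed the filter on low counts, and 14950 genes were tested in all. The cells were MDA-MB-231, an established human triple-negative breast cancer line with a mesenchymal character. They were treated for 24 h with BITC+ZA (2 µM BITC with 1 µM ZA), with 1 µM ZA alone, with 2 µM BITC alone, or with vehicle (0.02% DMSO and 0.1% water), and each group holds 3 libraries from dishes plated in triplicate. The labels abbreviate the compounds; from knowledge of the study, BITC is benzyl isothiocyanate, a reactive compound of cruciferous plants, and ZA is zoledronic acid, a bisphosphonate that blocks farnesyl diphosphate synthase. No group received interferon and all groups are the same line. The labels do not say whether the dishes were independent cultures; p-values therefore measure only the spread between dishes, which may be technical.

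Interferons are secreted proteins that bind paired receptors on the cell surface. The receptors engage the kinases JAK1 and TYK2, which phosphorylate transcription factors such as STAT2; a complex of STAT2 and IRF9 with a further partner binds the interferon-stimulated response element (ISRE) in the promoters of its targets. The products block viral translation and replication, sense foreign RNA, attach the ubiquitin-like protein ISG15 to other proteins and raise antigen presentation, and many tumour lines express a part of this set without added interferon.

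Totals ran from 15874857 to 17375664 counts per library. The 5 markers of the line (VIM, CD44, AXL, CAV1 and PLAUR) together had 793 to 800.5 FPKM in BITC+ZA libraries, 854 to 890.1 in ZA libraries, 827 to 852 in BITC libraries and 874 to 883 in vehicle libraries. Of 6 genes usually low in the line, CDH1 (0.050 FPKM on average) and ESR1 (0.00073) were near 0 and PGR had no counts, whereas ERBB2 averaged 8.76, EPCAM 6.07 and GATA3 5.23. Of 6 leukocyte markers 5 had counts and MS4A1 had none; they summed to 0.484 to 0.871 FPKM in BITC+ZA libraries, 0.289 to 0.685 in ZA, 0.396 to 0.646 in BITC and 0.415 to 0.845 in vehicle, mostly CD14 (0.486), with PTPRC at 0.0086 and CD3E at 0.00366. The 3 endothelial markers summed to 0.0303 to 0.0811 FPKM over the 12 libraries, and 3 of 4 fibroblast markers to 2.65 to 3.88, mostly PDGFRB (2.40) and COL1A1 (0.940), with no counts for DCN. The libraries differed in their trend on GC content. Across genes, GC content and the deviation of a library from the 12-library mean had a rank correlation of 0.314 to 0.477 in BITC+ZA libraries, −0.505, 0.531 and 0.585 in the 3 ZA libraries (the negative one being ZA library 1), −0.597 to −0.211 in BITC libraries and −0.311 to −0.0205 in vehicle libraries. Mitochondrial transcripts took 4.83 ± 0.0836% of counts in BITC+ZA libraries, 4.25 ± 0.604% in ZA, 3.94 ± 0.136% in BITC and 3.55 ± 0.0610% in vehicle (SD, n = 3 each). The 3 ZA libraries had 4.95, 3.88 and 3.92%. ZA library 1 also lay apart in its counts. A chi-square per gene between libraries of a group was 16.9 and 15.1 for ZA library 1 against ZA libraries 2 and 3. It was 2.30 to 3.99 for all other pairs within a group. For GC content and gene length a correction was fitted over all genes, and corrected values stand beside the calls that it ended. The correction also shifted all genes. Their median log2 fold change in BITC+ZA went from −0.0010 to −0.023 against vehicle, from 0.0048 to −0.034 against BITC and from −0.010 to −0.030 against ZA. For the interaction it went from −0.0061 to −0.042. In comparisons without BITC+ZA the corrected median was −0.0044 to 0.013. The part of this shift in calls gained or lost was not tested, nor was that of the mitochondrial share and of the markers.

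RefSeq promoter windows (build GRCh38.p14, from 250 bases before to 50 after each start) were at hand for 38 of the 44 members. Each was searched on both strands for GAAANNGAAA, the core of an ISRE (TTTCNNTTTC on the other strand). The core stood in 1255 of 35116 windows (3.57%) and in 27 of the 52 windows of members. Some members had more than 1 window, and 23 of the 38 had a match in at least 1. Of the 20 members called in any comparison below, 10 had a match, 6 had windows without one (ADAR, DDX58, STAT2, SP100, HLA-B and IFI35) and 4 had no window (IFIT2, OAS2, UBA7 and IRF7). The 5 stretches below were picked among the windows with a match: IFIT1 and IFIT3, IFIT5 of the same family, which was not called, and the abundant members ISG15 and B2M. They run 5′ to 3′ on the plus strand from 200 bases before to 20 bases after the start, with each match of the ISRE core in capitals.
IFIT1, chr10:89392423-89392642: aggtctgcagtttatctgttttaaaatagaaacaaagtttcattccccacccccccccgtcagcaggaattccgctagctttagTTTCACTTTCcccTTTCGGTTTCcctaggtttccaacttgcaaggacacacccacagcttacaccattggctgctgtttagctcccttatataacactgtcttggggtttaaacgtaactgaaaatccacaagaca
IFIT3, chr10:89327797-89328016: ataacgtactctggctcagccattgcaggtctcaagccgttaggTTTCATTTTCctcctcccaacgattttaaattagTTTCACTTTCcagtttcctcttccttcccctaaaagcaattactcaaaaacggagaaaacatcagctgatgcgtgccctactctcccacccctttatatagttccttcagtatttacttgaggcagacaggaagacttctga
IFIT5, chr10:89414368-89414587: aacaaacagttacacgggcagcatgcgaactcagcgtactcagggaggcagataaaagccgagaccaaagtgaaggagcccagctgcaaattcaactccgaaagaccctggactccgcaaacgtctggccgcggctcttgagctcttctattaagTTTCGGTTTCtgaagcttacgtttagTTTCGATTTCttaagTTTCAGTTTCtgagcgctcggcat
ISG15, chr1:1013297-1013516: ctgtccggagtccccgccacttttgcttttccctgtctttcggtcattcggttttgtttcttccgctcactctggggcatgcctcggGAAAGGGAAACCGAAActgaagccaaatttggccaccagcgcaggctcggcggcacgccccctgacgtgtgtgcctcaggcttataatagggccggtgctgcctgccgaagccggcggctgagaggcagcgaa
B2M, chr15:44711317-44711536: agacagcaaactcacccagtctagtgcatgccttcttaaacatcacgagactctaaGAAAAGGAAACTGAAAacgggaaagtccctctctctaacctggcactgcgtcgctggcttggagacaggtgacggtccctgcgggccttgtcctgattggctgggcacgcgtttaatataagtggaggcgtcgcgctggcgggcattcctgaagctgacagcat
IFIT1 and IFIT3 had 2 separate matches each, beginning 116 and 103 bases and 156 and 122 bases before the start. IFIT5 had 3, at 45, 19 and 4 bases. ISG15 had 2 that overlap, at 113 and 107 bases, and B2M likewise, at 144 and 138 bases. The deposited gene model of ISG15 begins at 1001138 on chromosome 1, upstream of the RefSeq start used here, so the 2 models differ. A match is a description of these letters and does not show that a factor was bound in these cells.

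Most members were expressed without added interferon. Levels compared between genes are FPKM, which scale for gene length. The 4 members above 50 FPKM were HLA-B (98.6 FPKM on average over the 12 libraries), B2M (97.0), ISG15 (93.3) and BST2 (92.5), followed at some distance by IFIT3 (37.1). Another 10 lay between 10 and 50 FPKM, 22 between 1 and 10, and 8 below 1. The lowest member, CMPK2, a mitochondrial nucleotide kinase, was not tested: it had 1, 4 and 5 reads in BITC+ZA libraries, 2, 1 and 1 in ZA libraries, 0 in each BITC library and 4, 2 and 0 in vehicle libraries. The lowest members tested were IFI44L (0.0806 FPKM), OAS1 (0.0959) and RSAD2 (0.123), with 8 to 21, 2 to 15 and 4 to 15 reads per library. At such counts changes of their size were not detectable, as described with each family.

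**Figure D1:**
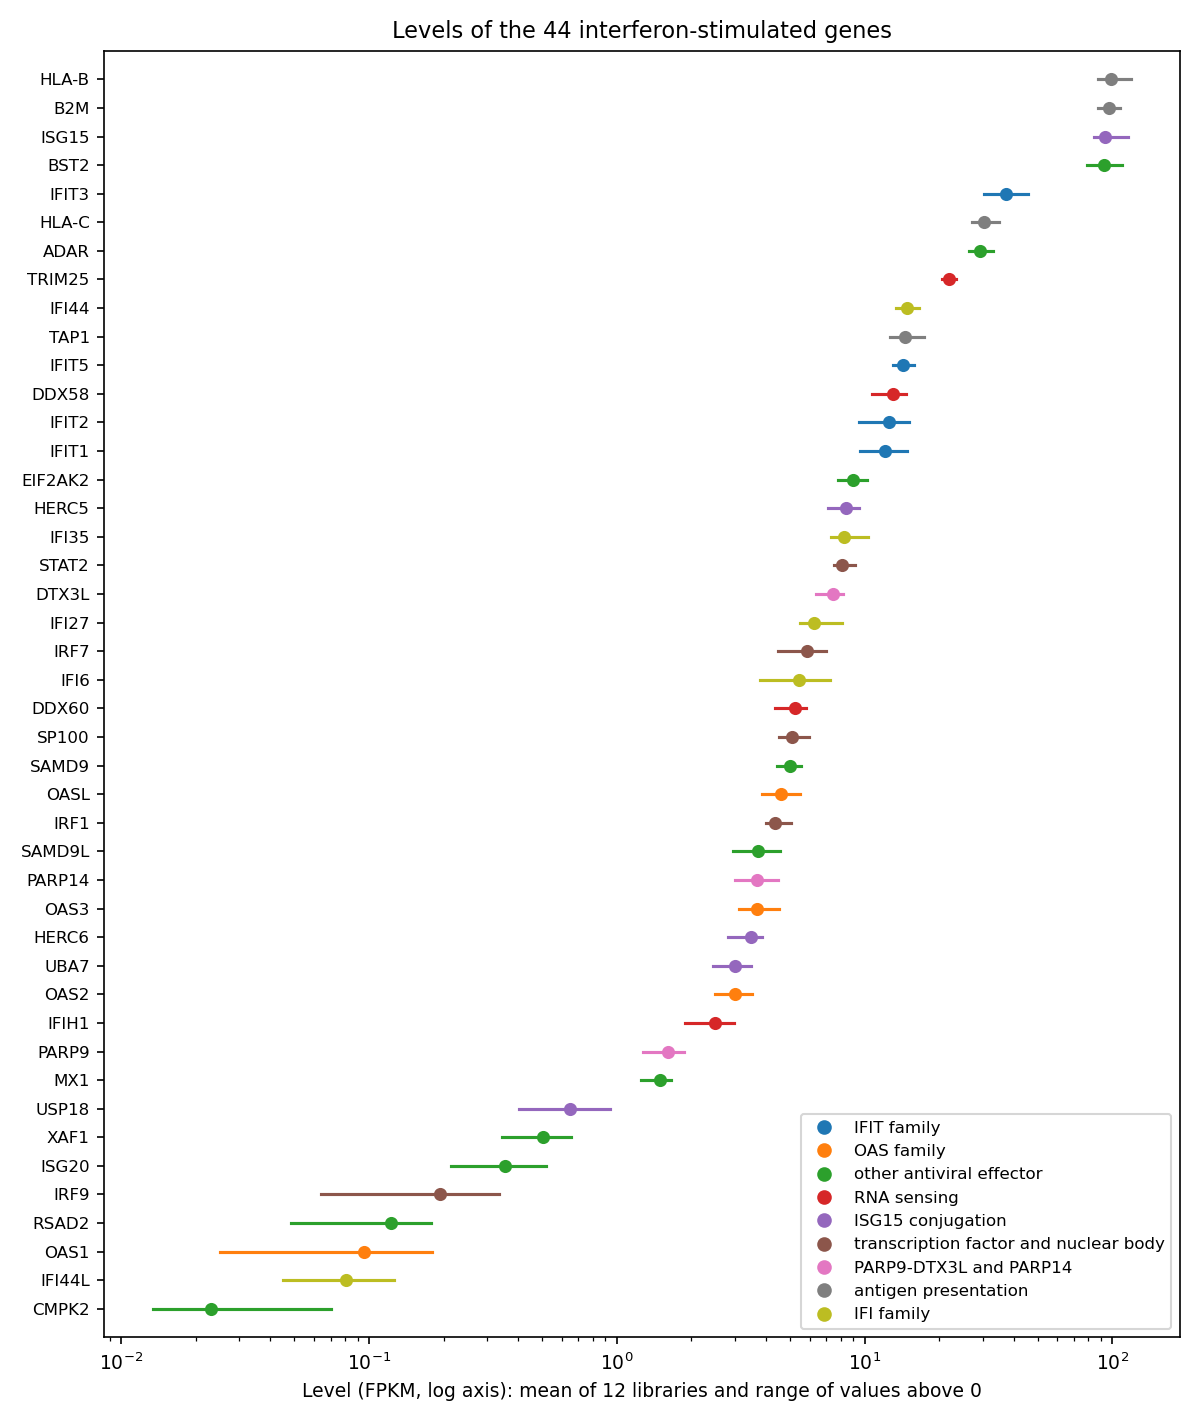
Level of each of the 44 members in FPKM on a log axis, as the mean of the 12 libraries (point) and the range of the values above 0 (line), coloured by role. HLA-B, B2M, ISG15 and BST2 stand at 92.5 to 98.6 FPKM, and 8 members, among them OAS1, RSAD2 and IRF9, lie below 1 FPKM.

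Genes were called at an adjusted p below 0.05 (edgeR's quasi-likelihood F test, Benjamini-Hochberg adjustment over all 14950 genes). Between BITC+ZA and vehicle, 0 of the 43 members were called higher and 3 lower (2.48% and 2.41% of all genes, 4.90% in all). For ZA against vehicle 1 was higher and 1 lower (0.355% and 0.709% of all genes, 1.06% in all). For BITC against vehicle 0 were higher and 1 lower (0.776% and 1.00%, 1.78% in all). The members called against vehicle were 6.98%, 4.65% and 2.33% of the 43 in these comparisons, 3 genes or fewer each, too few to set apart from the background. Between BITC+ZA and ZA 0 were higher and 7 lower (3.31% and 3.64% of all genes, 6.95% in all). Between BITC+ZA and BITC 3 were higher and 6 lower (6.60% and 8.15%, 14.7% in all). Between ZA and BITC 8 were higher and 2 lower (6.11% and 4.44%, 10.5% in all). For the interaction (the change under both compounds less those under each alone, added up) 0 members were higher and 1 lower (1.31% and 1.53%, 2.84% in all). Comparisons that share a group are not independent of each other. In all, 20 members were called at least once and 23 were not called in this fit of all 12 libraries, to which "called" refers below unless an alternative is named. Of those 23, 12 were called in some comparison under at least 1 of the 20 alternatives run (DTX3L, EIF2AK2, HERC6, HLA-C, IFI6, IFIH1, IFIT5, OAS3, SAMD9, SAMD9L, TAP1 and TRIM25). The share of all genes called at least once was not taken on the same terms. These counts of 20 and 12 therefore do not set the members apart from other genes.

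**Figure D2:**
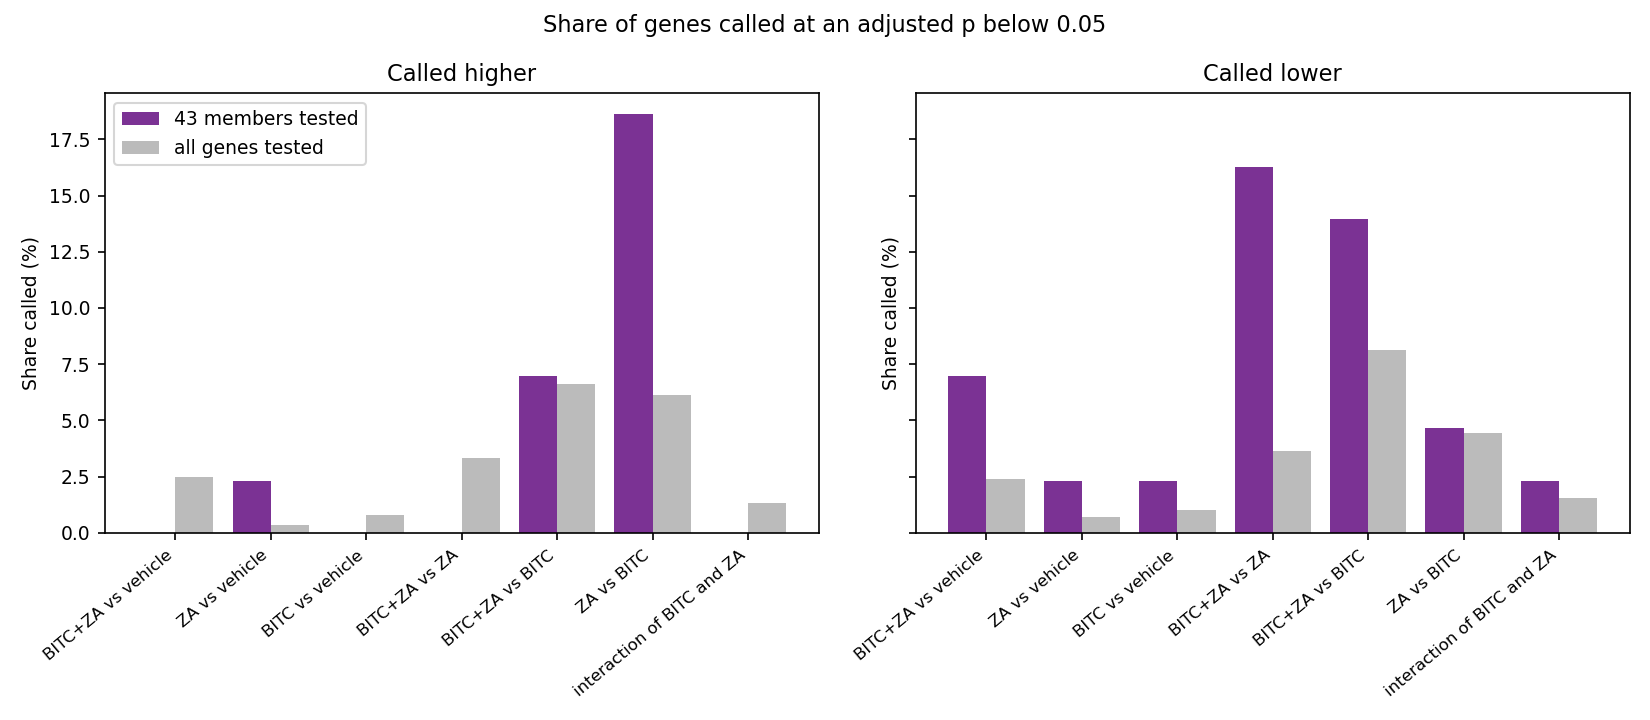
Share of the 43 members tested and of all 14950 genes tested (percent) that were called higher (left) or lower (right) at an adjusted p below 0.05, for the 6 comparisons and the interaction. Members called lower in BITC+ZA against ZA made up 16.3% against 3.64% of all genes, and members called higher in BITC+ZA against vehicle 0% against 2.48%.

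Most changes were small and the members did not move as a block. The median log2 fold change of the 43 members was −0.08 for BITC+ZA against vehicle, 0.01 for ZA against vehicle and −0.04 for BITC against vehicle, and 29, 20 and 28 of the 43 were below 0. In BITC+ZA against vehicle, 14 members had all 3 BITC+ZA libraries below all 3 vehicle libraries and 4 had them all above. Of all genes, 17.2% and 15.6% did so (32.8% in all), so such separation is common. Where libraries are said below to lie apart, this describes the gene and adds no support to a change. Summed over all 44 members, levels were 2640, 2632 and 2677 CPM (read counts scaled to a common library size) in BITC+ZA libraries, 2847, 2906 and 2833 in ZA libraries, 2774, 2784 and 2737 in BITC libraries and 2835, 2853 and 2824 in vehicle libraries, a sum in which the largest parts are those of B2M, HLA-B and ADAR. In bulk libraries, fewer cells expressing a gene and less RNA per cell cannot be told apart.

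The clearest change was in the IFIT genes, which bind foreign RNA ends and block translation. IFIT2, IFIT3, IFIT1 and IFIT5 lie in this order on the plus strand of chromosome 10, from 89283694 to 89421001 (GRCh38). IFIT1, the member that recognises RNA caps lacking 2′-O methylation, had 46.9, 45.1 and 48.8 CPM in BITC+ZA libraries, 69.1, 59.9 and 63.2 in ZA libraries, 48.5, 51.9 and 51.7 in BITC libraries and 62.3, 65.2 and 63.9 in vehicle libraries. All 6 libraries with BITC, alone or combined, were below all 6 without it. IFIT1 fell in BITC+ZA against vehicle (log2 fold change −0.44, SE 0.07, adjusted p = 0.000114) and in BITC against vehicle (−0.33, SE 0.06, adjusted p = 0.00445), and stood at 0.01 (adjusted p = 0.978) in ZA against vehicle. The BITC call was lost without BITC library 1 (adjusted p = 0.0549).

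IFIT2, which also promotes apoptosis, had 40.1, 47.9 and 42.2 CPM in BITC+ZA libraries, 60.9, 63.2 and 57.7 in ZA libraries, 46.1, 49.3 and 48.7 in BITC libraries and 59.6, 57.0 and 51.5 in vehicle libraries. Again no library with BITC reached one without it. IFIT2 fell in BITC+ZA against vehicle (−0.37, SE 0.07, adjusted p = 0.00276), while BITC against vehicle was not called (−0.22, adjusted p = 0.124; −0.27 and adjusted p = 0.00859 after GC and length correction). IFIT3, which stabilises IFIT1 on RNA, had 82.1, 84.3 and 86.4 CPM in BITC+ZA libraries, 122, 102 and 96.9 in ZA libraries, 96.1, 97.7 and 89.4 in BITC libraries and 109.8, 111 and 112 in vehicle libraries. BITC+ZA lay below every other group, and ZA library 1 was the highest of all. IFIT3 fell in BITC+ZA against vehicle (−0.39, SE 0.07, adjusted p = 0.000512) and was not called in BITC against vehicle (−0.23, adjusted p = 0.0646; −0.29 and adjusted p = 0.000139 after that correction).

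All 3 genes were also lower in BITC+ZA than in ZA: IFIT1 by −0.45 (adjusted p = 0.000101), IFIT2 by −0.48 (adjusted p = 0.000157) and IFIT3 by −0.34 (adjusted p = 0.00200) on the log2 scale. In ZA against BITC, IFIT1 (0.34, adjusted p = 0.00240) and IFIT2 (0.34, adjusted p = 0.00502) were higher. In BITC+ZA against BITC none of the 3 was called (IFIT1 −0.11, IFIT2 −0.15, IFIT3 −0.16), nor was any interaction (IFIT1 −0.12, IFIT2 −0.26, IFIT3 −0.11; adjusted p = 0.537, 0.162 and 0.571). The calls of IFIT1, IFIT2 and IFIT3 in BITC+ZA against vehicle, and of IFIT1 and IFIT2 in BITC+ZA against ZA and in ZA against BITC, held under each of the 20 alternatives run. IFIT3 in BITC+ZA against ZA lost its call when the fit held those groups alone (adjusted p = 0.0520).

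IFIT5, with 3 matches in the promoter shown, had 55.7, 53.3 and 54.2 CPM in BITC+ZA libraries, 60.4, 57.1 and 53.5 in ZA libraries, 63.8, 61.3 and 57.6 in BITC libraries and 59.4, 62.9 and 60.4 in vehicle libraries. The BITC+ZA libraries lay below all vehicle and BITC libraries and overlapped those of ZA. With all libraries IFIT5 was not called in any comparison (BITC+ZA against vehicle −0.16, SE 0.06, adjusted p = 0.139), and 2 of 20 alternatives called it lower against vehicle. The difference from its neighbours was not tested. IFIT1, IFIT3 and IFIT5 share no annotated exon bases with another gene and IFIT2 shares 10.3%, mostly with a non-coding transcript at 0.0923 CPM. The gene for lysosomal lipase, LIPA, spans IFIT2, IFIT3 and IFIT1 on the minus strand, and its exons meet only those of IFIT2, over 1.58% of its bases.

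**Figure D3:**
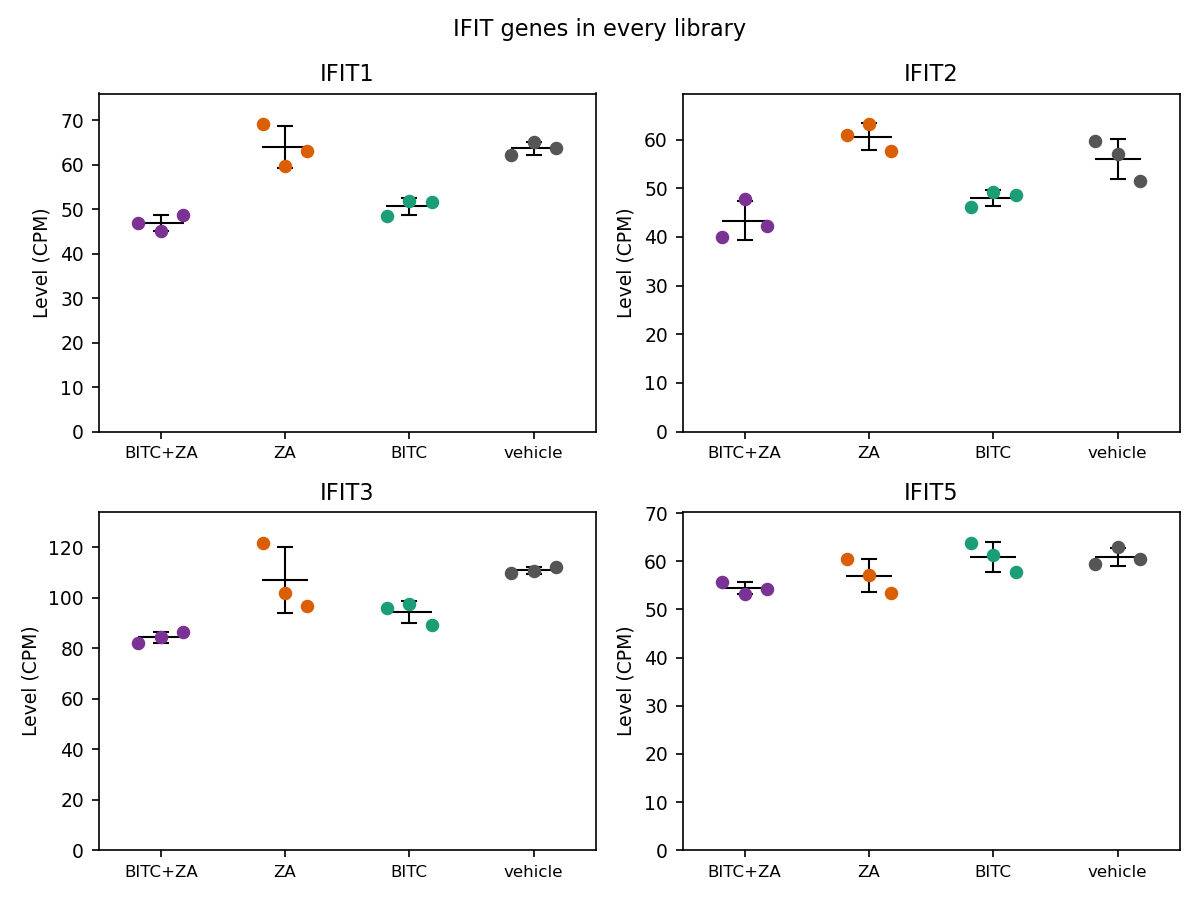
Levels of IFIT1, IFIT2, IFIT3 and IFIT5 in CPM in every library (points), with the mean and SD of the 3 libraries of a group (lines). The BITC+ZA libraries of IFIT1, at 45.1 to 48.8 CPM, and the BITC libraries, at 48.5 to 51.9, lie below all ZA and vehicle libraries. For IFIT5 the BITC+ZA libraries lie below those of vehicle and BITC and overlap those of ZA.

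The OAS enzymes make the messenger that activates RNase L. OAS2 was called once, lower in BITC+ZA than in BITC (−0.28, SE 0.10, adjusted p = 0.0486), and kept that call in 7 of 20 alternatives. It had 16.1, 17.8 and 16.3 CPM in BITC+ZA libraries, 19.3, 18.2 and 18 in ZA libraries, 22.1, 17.8 and 21.1 in BITC libraries and 20.1, 20.6 and 20.3 in vehicle libraries. OAS1, the best known of the family, had 3, 10 and 10 reads in BITC+ZA libraries, 7, 13 and 11 in ZA, 8, 9 and 2 in BITC and 4, 3 and 15 in vehicle, too few to show a change.

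Among other antiviral effectors, 3 were called. ISG20, an RNA exonuclease, had 1.84, 1.61 and 2.34 CPM in BITC+ZA libraries, 3.32, 3.91 and 3.28 in ZA libraries, 1.62, 2.34 and 3.37 in BITC libraries and 2.98, 2.64 and 2.31 in vehicle libraries. It was lower in BITC+ZA than in ZA (−0.86, SE 0.25, adjusted p = 0.0356) and not called against vehicle (−0.45, adjusted p = 0.325). BST2 (tetherin), which holds budding virus particles at the surface, had 104, 104 and 113 CPM in BITC+ZA libraries, 102, 126 and 113 in ZA libraries, 94.9, 89.1 and 103 in BITC libraries and 104, 105 and 99.9 in vehicle libraries. It was higher in ZA than in BITC (0.25, SE 0.07, adjusted p = 0.0164), with groups that overlap; after GC and length correction the change was 0.10 (adjusted p = 0.164). ADAR, which edits adenosine to inosine in double-stranded RNA, was lower in ZA than in BITC (−0.19, SE 0.05, adjusted p = 0.0118), and also after that correction (−0.15, adjusted p = 0.00556). It had 283, 298 and 293 CPM in BITC+ZA libraries, 266, 261 and 262 in ZA libraries, 288, 321 and 291 in BITC libraries and 289.5, 301 and 299 in vehicle libraries, so that ZA stood lowest.

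MX1, a dynamin-like GTPase and a usual reporter of interferon activity, differed by less than the spread between dishes. It had 12.6, 14.6 and 11.04 CPM in BITC+ZA libraries, 11.95, 13.1 and 13.3 in ZA libraries, 12.7, 13.2 and 13.3 in BITC libraries and 13.9, 12.2 and 14.1 in vehicle libraries (BITC+ZA against vehicle −0.07, SE 0.11, adjusted p = 0.775). RSAD2 (viperin) had the lowest log2 fold change in BITC+ZA against vehicle, without a call (−0.66, SE 0.47, adjusted p = 0.444), with 9, 9 and 6 reads in BITC+ZA libraries, 13, 11 and 4 in ZA, 10, 12 and 5 in BITC and 14, 15 and 11 in vehicle.

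Of the genes of RNA sensing, DDX58 and DDX60 were lower in BITC+ZA than in BITC. DDX58, which encodes the RNA sensor RIG-I, had 53.5, 56.8 and 47.5 CPM in BITC+ZA libraries, 60.3, 54.6 and 54.1 in ZA libraries, 64.8, 63.5 and 59.1 in BITC libraries and 59.9, 55.0 and 61.6 in vehicle libraries (−0.25, SE 0.07, adjusted p = 0.0226). DDX60, a helicase linked to RIG-I signalling, had 36.2, 31.8 and 29.9 CPM in BITC+ZA libraries, 36.7, 34.8 and 34.7 in ZA libraries, 39.6, 38.4 and 38.8 in BITC libraries and 38.9, 34.1 and 34.8 in vehicle libraries (−0.26, SE 0.08, adjusted p = 0.0297). Neither was called against vehicle. After GC and length correction the changes were −0.14 (adjusted p = 0.100) for DDX58 and −0.16 (adjusted p = 0.129) for DDX60. IFIH1 (MDA5) and TRIM25, the ligase of RIG-I, were not called with all libraries.

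ISG15 is conjugated to proteins by UBA7, its activating enzyme, and the ligase HERC5, and USP18 removes it. ISG15 had 85.4, 81.7 and 84.6 CPM in BITC+ZA libraries, 92.6, 111 and 100.5 in ZA libraries, 79.8, 81.5 and 85.0 in BITC libraries and 88.3, 85.2 and 91.3 in vehicle libraries. The ZA libraries were above those of every other group. It was lower in BITC+ZA than in ZA (−0.27, SE 0.06, adjusted p = 0.00677) and higher in ZA than in BITC (0.30, SE 0.06, adjusted p = 0.00295). After GC and length correction the first stood at −0.27 (adjusted p = 0.000120) and the second at 0.07 (adjusted p = 0.388). ISG15 was not called by edgeR in ZA against vehicle (0.20, adjusted p = 0.0930), and was called higher there by DESeq2 and without ZA library 1.

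UBA7 was higher in BITC+ZA than in BITC (0.33, SE 0.11, adjusted p = 0.0467), with 16.2, 15.2 and 15.0 CPM in BITC+ZA libraries, 11.3, 14.9 and 13.8 in ZA libraries, 11.7, 12.8 and 12.5 in BITC libraries and 14.8, 13.7 and 13.7 in vehicle libraries. HERC5 was lower in that comparison (−0.22, SE 0.07, adjusted p = 0.0418), with 38.0, 36.8 and 34.7 CPM in BITC+ZA libraries, 42.8, 41.5 and 39.9 in ZA libraries, 45.4, 41.2 and 40.7 in BITC libraries and 39.4, 42.0 and 43.3 in vehicle libraries. The first and last enzymes of the cascade stood on opposite sides, and neither call held after GC and length correction (UBA7 0.15, adjusted p = 0.404; HERC5 −0.16, adjusted p = 0.101). USP18 had 15 to 34 reads per library and was not called; its BITC+ZA libraries had 31, 20 and 22, against 15, 32 and 34 in ZA, 23, 19 and 18 in BITC and 21, 15 and 28 in vehicle.

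STAT2, a part of the ISRE-binding complex, had 57.4, 54.4 and 54.3 CPM in BITC+ZA libraries, 46.7, 47.5 and 50.8 in ZA libraries, 46.2, 47.3 and 48.9 in BITC libraries and 47.9, 51.2 and 49.6 in vehicle libraries. The BITC+ZA libraries were above all 9 others. STAT2 was called higher against BITC alone (0.22, SE 0.06, adjusted p = 0.0222; 0.16 and adjusted p = 0.0543 after GC and length correction), and stood at 0.16 (adjusted p = 0.147) against vehicle. IRF7, which drives later interferon-alpha genes, had 16.3, 17.2 and 16.8 CPM in BITC+ZA libraries, 18.4, 18.7 and 15.3 in ZA libraries, 14.5, 11.9 and 12.5 in BITC libraries and 15.0, 15.6 and 14.4 in vehicle libraries. BITC was the lowest group but for the overlap of 1 library with vehicle. IRF7 was higher than in BITC both in BITC+ZA (0.37, SE 0.11, adjusted p = 0.0226) and in ZA (0.43, SE 0.11, adjusted p = 0.0109), changes that were 0.14 (adjusted p = 0.481) and 0.18 (adjusted p = 0.376) after GC and length correction.

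SP100, a component of nuclear bodies, had 60.6, 58.5 and 59.5 CPM in BITC+ZA libraries, 70.1, 59.1 and 62.1 in ZA libraries, 76.2, 73.7 and 70.1 in BITC libraries and 63.6, 61.3 and 64.2 in vehicle libraries. BITC was highest on average, and ZA library 1 came within rounding of its lowest library. SP100 was lower in BITC+ZA than in BITC (−0.30, SE 0.06, adjusted p = 0.00499), a call that held under each of the 20 alternatives, and lower in ZA than in BITC (−0.20, SE 0.06, adjusted p = 0.0408), which held in 6 and not after GC and length correction (−0.09, adjusted p = 0.285). IRF1, the early interferon-gamma response factor, had 34.8, 34.3 and 35.6 CPM in BITC+ZA libraries, 33.7, 40.4 and 34.1 in ZA libraries, 33.7, 34.5 and 33.7 in BITC libraries and 32.2, 35.4 and 31.3 in vehicle libraries, and was not called. IRF9 had 12, 12 and 21 reads in BITC+ZA libraries, 9, 15 and 13 in ZA, 8, 4 and 16 in BITC and 14, 14 and 10 in vehicle. That level, 0.194 FPKM, is hard to read: 48.4% of its annotated exon bases are shared, on the same strand, with the read-through gene AL136295.5, and the sources used here do not give how such reads were counted.

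PARP14, an ADP-ribosyltransferase, was lower in ZA than in vehicle (−0.32, SE 0.08, adjusted p = 0.0317), with 37.7, 37.1 and 37.4 CPM in BITC+ZA libraries, 37.2, 32.3 and 36.8 in ZA libraries, 37.0, 41.5 and 39.1 in BITC libraries and 47.1, 44.8 and 41.0 in vehicle libraries. Vehicle was the highest group, with 1 BITC library above its lowest. The call held in 9 of 20 alternatives and not after GC and length correction (−0.22, adjusted p = 0.0703). PARP9 and DTX3L, which work as a pair in DNA repair and interferon responses, were not called with all libraries.

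Antigen presentation includes the most abundant members. B2M, the light chain of class I molecules, had 556, 544 and 547 CPM in BITC+ZA libraries, 659, 625 and 601 in ZA libraries, 632, 611 and 603 in BITC libraries and 597, 595 and 591 in vehicle libraries. The BITC+ZA libraries were below all 9 others. B2M was lower in BITC+ZA than in ZA (−0.19, SE 0.04, adjusted p = 0.00638) and than in BITC (−0.16, SE 0.04, adjusted p = 0.0143), with −0.11 against vehicle, which was not called. It was the 1 member called for the interaction (−0.24, SE 0.06, adjusted p = 0.0282), against 2.84% of all genes. After GC and length correction the change against BITC was −0.08 (adjusted p = 0.0918) and the interaction −0.21 (adjusted p = 0.00348).

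HLA-B, a class I heavy chain, was higher in ZA than in BITC (0.26, SE 0.06, adjusted p = 0.0145; 0.09 and adjusted p = 0.105 after GC and length correction). It had 294, 277 and 307 CPM in BITC+ZA libraries, 290.1, 371 and 346 in ZA libraries, 284, 269 and 290.5 in BITC libraries and 299.7, 315 and 311 in vehicle libraries, so that ZA library 1 lay within the range of the other groups and ZA libraries 2 and 3 above it. HLA-B shares sequence with other class I genes such as HLA-C, and reads may be split between them. TAP1, which carries peptides into the endoplasmic reticulum, had 73.6, 72.4 and 72.7 CPM in BITC+ZA libraries, 61.4, 85.0 and 79.9 in ZA libraries, 64.0, 65.2 and 68.2 in BITC libraries and 67.0, 71.7 and 70.6 in vehicle libraries, and was not called with all libraries.

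IFI35, a cytosolic protein that partners NMI, had 16.2, 14.8 and 15.7 CPM in BITC+ZA libraries, 18.2, 20.4 and 20.7 in ZA libraries, 16.02, 16.04 and 16.5 in BITC libraries and 14.8, 14.9 and 14.6 in vehicle libraries. ZA stood above every other group. It was the 1 member called higher in ZA against vehicle (0.42, SE 0.09, adjusted p = 0.0275), and was lower in BITC+ZA than in ZA (−0.35, SE 0.09, adjusted p = 0.0242) and higher in ZA than in BITC (0.29, SE 0.09, adjusted p = 0.0452). The first of these calls held in 11 of 20 alternatives, the next in 15 and the last in 3; after GC and length correction the changes in ZA were 0.30 (adjusted p = 0.0725) against vehicle and 0.12 (adjusted p = 0.460) against BITC. IFI27, a small membrane protein, was higher in ZA than in BITC (0.31, SE 0.09, adjusted p = 0.0306), with 25.6, 23.8 and 29.4 CPM in BITC+ZA libraries, 27.1, 34.4 and 28.8 in ZA libraries, 23.0, 24.8 and 24.9 in BITC libraries and 24.3, 23.5 and 25.3 in vehicle libraries. IFI44L had the highest log2 fold change in BITC+ZA against vehicle, without a call (0.67, SE 0.40, adjusted p = 0.348), at 18, 20 and 11 reads in BITC+ZA libraries, 10, 11 and 13 in ZA, 11, 18 and 21 in BITC and 12, 8 and 12 in vehicle.

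**Figure D4:**
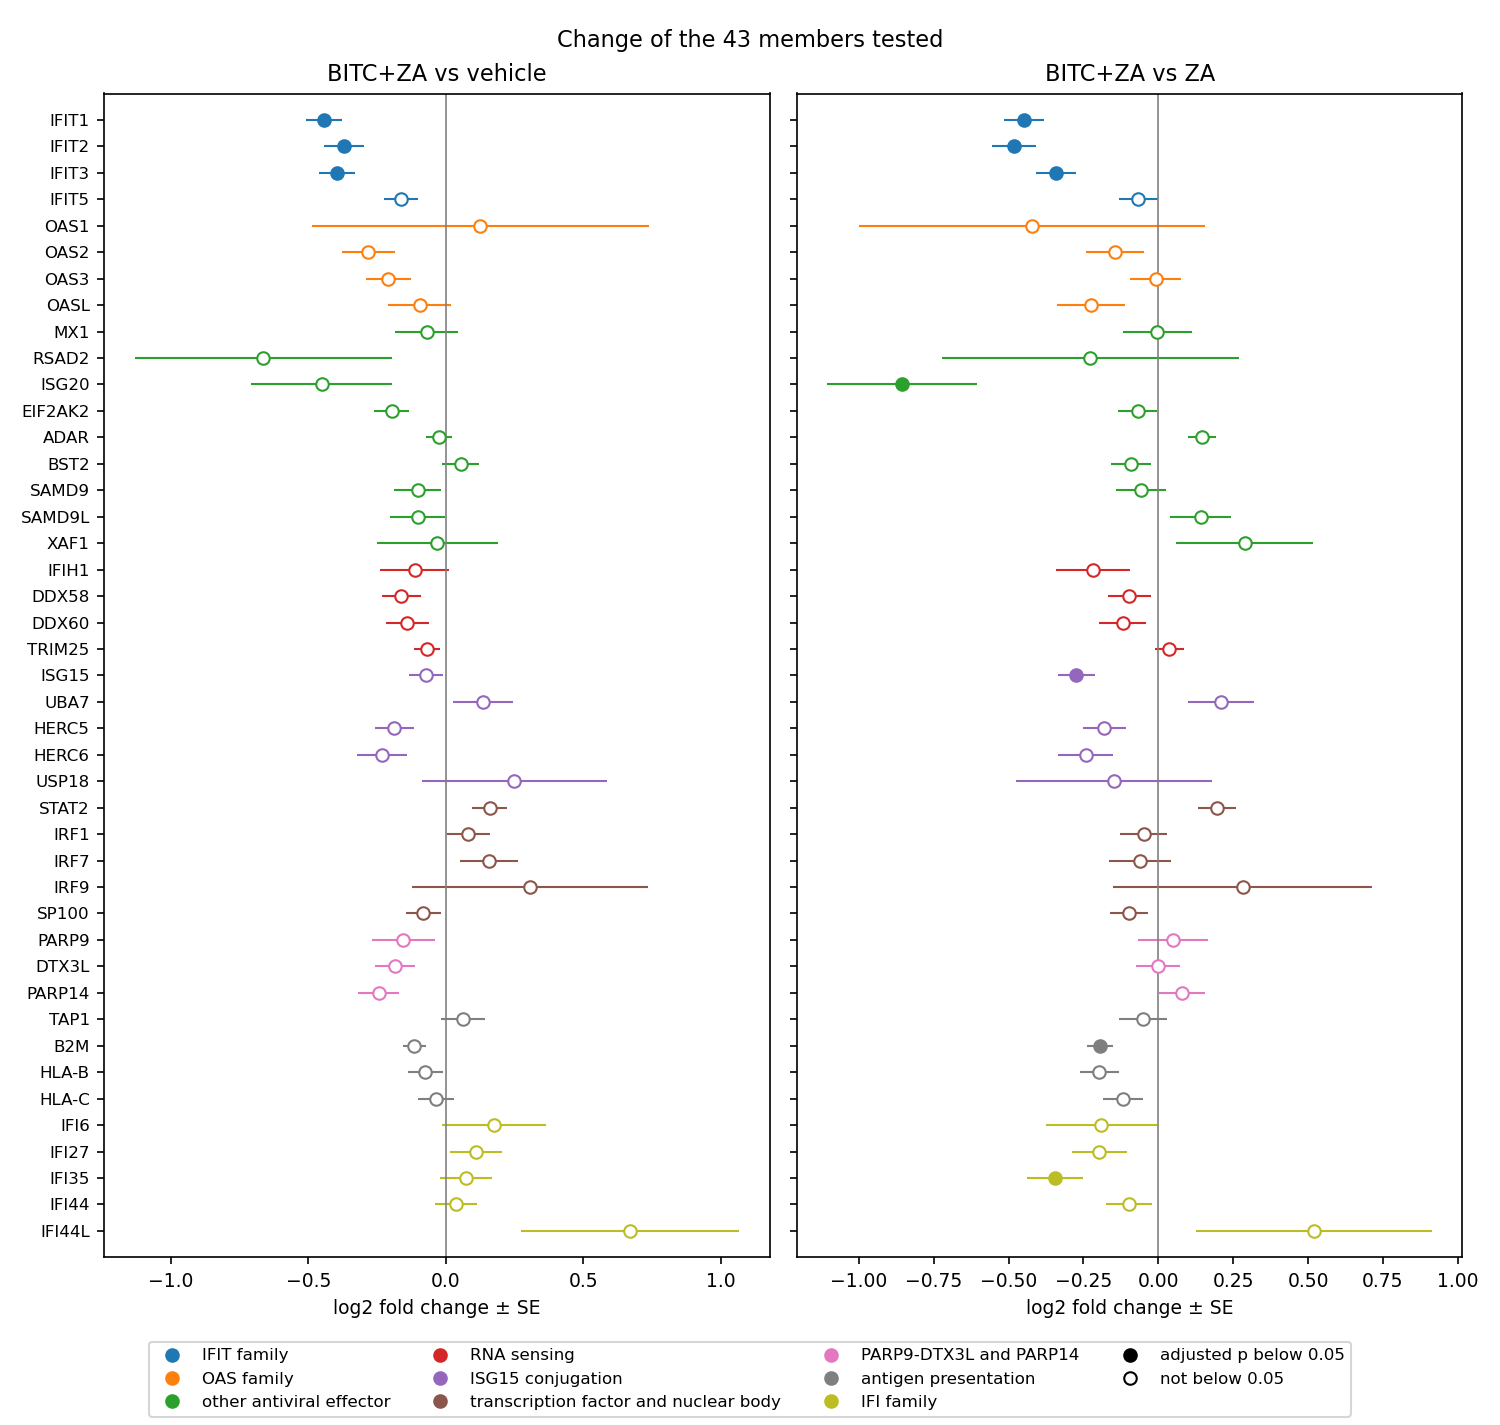
Log2 fold change ± SE of the 43 members tested in BITC+ZA against vehicle (left) and BITC+ZA against ZA (right), ordered and coloured by role, with filled points for an adjusted p below 0.05. IFIT1, IFIT2 and IFIT3, at −0.37 to −0.44 on the left, are the filled points there, and ISG15, ISG20, IFI35 and B2M join them on the right.

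The other 16 members (IFIT5, OAS3, OASL, CMPK2, EIF2AK2, SAMD9, SAMD9L, XAF1, IFIH1, TRIM25, HERC6, PARP9, DTX3L, HLA-C, IFI6 and IFI44) averaged 0.0231 to 30.4 FPKM and had no call in the fit of all 12 libraries. Their log2 fold changes lay between −0.23 (HERC6) and 0.17 (IFI6) in BITC+ZA against vehicle, between −0.32 (XAF1) and 0.37 (IFI6) in ZA against vehicle and between −0.24 (OAS3) and 0.20 (IFIH1) in BITC against vehicle.

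Members called higher and lower in BITC+ZA against BITC differed in base composition. The 3 members called higher (STAT2, UBA7 and IRF7) had a GC content of 50.2 to 66.8% in their longest transcript. The 6 called lower (SP100, DDX58, OAS2, DDX60, HERC5 and B2M) had 39.1 to 47.0%, and the 34 not called 36.0 to 63.4%. The libraries of these groups had GC trends of opposite sign, so treatment and GC trend cannot be told apart here. After GC and length correction 5 members were called lower and 0 higher there, beside 9.42% and 2.62% of all genes: SP100 and OAS2 kept their calls, and HLA-B (−0.11, adjusted p = 0.0338), HLA-C (−0.20, adjusted p = 0.00992) and ISG15 (−0.19, adjusted p = 0.00582) were added. The IFIT genes have a GC content of 42.2% (IFIT1), 42.8% (IFIT2), 44.3% (IFIT3) and 37.4% (IFIT5), and the corrected calls of IFIT1, IFIT2 and IFIT3 in BITC+ZA against vehicle were among 8 lower and 0 higher, beside 5.99% and 2.92% of all genes. The other 5 were HLA-B (−0.19, adjusted p = 0.000385), ISG15 (−0.23, adjusted p = 0.00122), OAS2 (−0.28, adjusted p = 0.0448), OAS3 (−0.27, adjusted p = 0.0163) and PARP14 (−0.20, adjusted p = 0.0486). With the correction the median log2 fold change of all genes in BITC+ZA was itself below 0, at −0.034 against BITC and −0.023 against vehicle. Calls added or lost there therefore cannot be read as the effect of GC content and length alone. Without ZA library 1, 10 members were called lower in BITC+ZA against vehicle and 0 higher, beside 8.31% and 6.31% of all genes. In ZA against vehicle 7 were then higher and 5 lower, beside 9.16% and 7.14% of all genes.

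The correction also added calls in other comparisons. In BITC+ZA against ZA these were HERC6 (−0.28, adjusted p = 0.0300), HLA-B (−0.20, adjusted p = 0.000104) and SP100 (−0.18, adjusted p = 0.0202). In ZA against vehicle they were B2M (0.13, adjusted p = 0.0225) and IFI27 (0.30, adjusted p = 0.0482), and in ZA against BITC B2M (0.11, adjusted p = 0.0179) and IFIT3 (0.21, adjusted p = 0.00307). SP100 was called higher in BITC against vehicle (0.23, adjusted p = 0.00530). For the interaction IFI35 (−0.52, adjusted p = 0.0116), ISG15 (−0.23, adjusted p = 0.0308) and SP100 (−0.40, adjusted p = 0.000615) were added. The corrected median of all genes was −0.030 in BITC+ZA against ZA and −0.042 for the interaction.

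**Figure D5:**
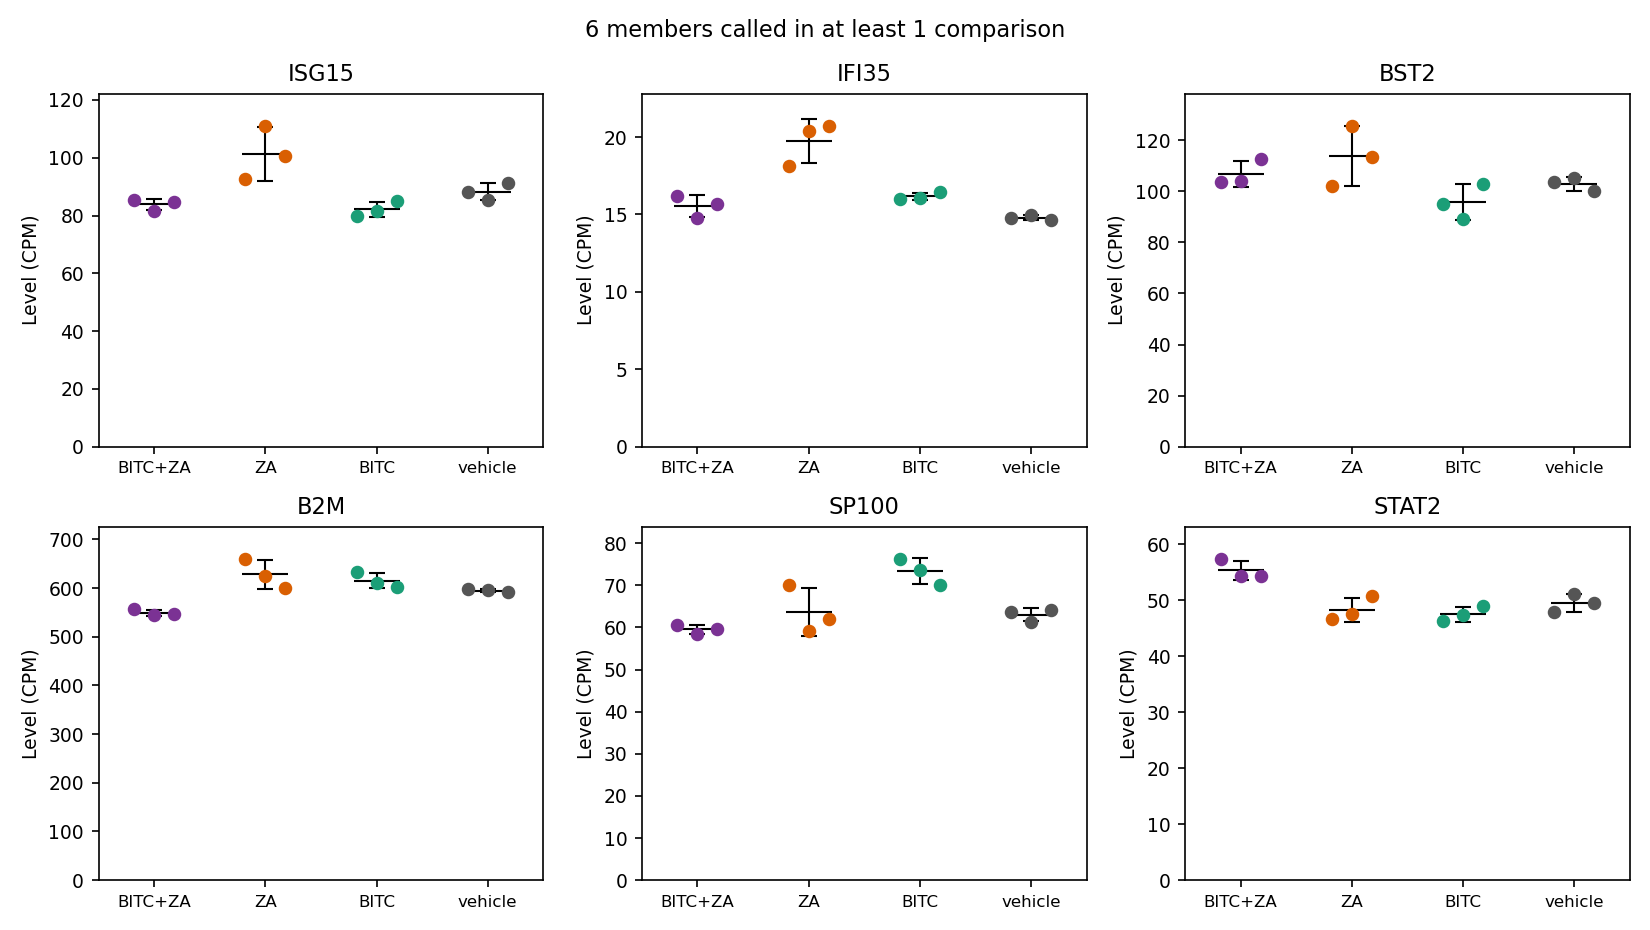
Levels of ISG15, IFI35, BST2, B2M, SP100 and STAT2 in CPM in every library (points), with the mean and SD of the 3 libraries of a group (lines). ISG15 and IFI35 are highest in ZA, SP100 in BITC and STAT2 in BITC+ZA, and B2M is lowest in BITC+ZA.

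Of 10 interferon genes, the ligands of the pathway, 9 were listed at 0 FPKM in every library and IFNL1 reached at most 0.0735 FPKM. TREX1, a broadly expressed nuclease gene, was also listed at 0 in all 12 libraries, so a listed 0 need not mean that a gene was silent. The signalling chain was expressed: over the 12 libraries IFNAR1 averaged 11.9 FPKM, IFNGR1 8.04, IFNGR2 16.2, JAK1 20.2 and TYK2 14.6. IFNAR2 (0.253 FPKM) and IL10RB (0.0739) were low, but 44.2% and 38.1% of their exon bases are shared with another gene on the same strand.

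Of 92 other genes of the pathway, 81 had counts and 75 were tested. In BITC+ZA against vehicle 1 (1.33%) was called, beside 4.90% of all genes. This was SAMHD1, an enzyme that breaks down deoxynucleoside triphosphates, which was lower (−0.26, SE 0.05, adjusted p = 0.00390). It had 113, 114 and 113 CPM in BITC+ZA libraries, 129, 116 and 122 in ZA libraries, 124, 134 and 129 in BITC libraries and 134, 132 and 141 in vehicle libraries, and its call held under each of the 20 alternatives. In ZA and in BITC against vehicle 0 of the 75 were called by edgeR, beside 1.06% and 1.78% of all genes. DESeq2 called 2 and 0, beside 5.03% and 3.47% of all genes. At an unadjusted p below 0.05 edgeR gave 16 and 14, for which the share of all genes is not given here.

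In BITC+ZA against BITC 7 pathway genes were higher and 11 lower, 9.33% and 14.7% of the 75, beside 6.60% and 8.15% of all genes. The DNA sensor gene CGAS (−0.26, adjusted p = 0.00927) and PSME1, a proteasome activator subunit (−0.25, adjusted p = 0.00598), held that call under each of the 20 alternatives. IFNAR1, JAK1, TLR3, SAMHD1, IFI16, GBP1 and NMI were also lower, at −0.17 to −0.71. With GC and length corrected, IFI16 (−0.11, adjusted p = 0.122), IFNAR1 (−0.13, adjusted p = 0.104), NMI (−0.18, adjusted p = 0.144) and TLR3 (−0.61, adjusted p = 0.0812) lost their calls. The 7 higher were TYK2, IRF3, SOCS3, HLA-E, PML, HELZ2 and RNF213, at 0.16 to 0.38. Of these, IRF3 kept its call after GC and length correction (0.20, adjusted p = 0.0301). The others did not: TYK2 stood at 0.04, RNF213 at 0.03, HLA-E at 0.06, SOCS3 at 0.13, PML at −0.07 and HELZ2 at −0.04, with adjusted p of 0.669, 0.725, 0.357, 0.277, 0.404 and 0.705.

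In BITC+ZA against ZA 3 pathway genes were higher (MAVS, ZNFX1 and RNF213, at 0.19 to 0.29) and 6 lower (among them IFNGR1, TLR3, PSME1, IFITM2 and LY6E, at −0.19 to −0.82). These were 4.0% and 8.0% of the 75, beside 3.31% and 3.64% of all genes. With the same correction the 5 lower genes named kept their calls and the 3 higher ones did not: MAVS (0.07, adjusted p = 0.246), ZNFX1 (0.11, adjusted p = 0.103) and RNF213 (0.06, adjusted p = 0.351). In ZA against BITC 5 were higher (IRF3, IFITM3, LY6E, PARP10 and PSMB9, at 0.18 to 0.48) and 5 lower (among them JAK1, CGAS, PTPN11 and TBK1, at −0.17 to −0.25). These were 6.67% of the 75 each way, beside 6.11% higher and 4.44% lower of all genes. There IFITM3 (0.04, adjusted p = 0.657), PARP10 (0.13, adjusted p = 0.331), LY6E (−0.05, adjusted p = 0.613) and TBK1 (−0.17, adjusted p = 0.0547) lost their calls after that correction. The authors' deposited table, with its own adjusted p below 0.05, put 6 of the 44 members lower and 0 higher in BITC+ZA against vehicle, beside 3.96% and 2.81% of all genes with an adjusted p there. The authors' deposited table had 0 either way in ZA against vehicle (0.318% and 0.0766% of all genes), and 4 lower and 1 higher in BITC against vehicle (2.03% and 1.70%). In that table IFIT1, IFIT2 and IFIT3 were lower in BITC+ZA against vehicle and also in BITC against vehicle.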

How the data were processed

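RNA of 12 libraries was sequenced. The submitters' processing notes name HISAT2, DESeq2 1.20.0 and GRCh38 (hg38); the sources used here do not give the counter, annotation release or strand setting, so reads of overlapping or near-identical genes cannot be told apart with certainty. Per the file headers, the authors deposited 6 tables of raw read counts with their log2 fold changes, adjusted p-values and gene lengths, and 1 table of FPKM, whose scaling total no header states.

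The 6 tables were joined by Ensembl identifier (27412 genes, 0 conflicting counts). Values missing from a table, 4593 in all, had an FPKM of 0 and were entered as 0. Counts were tested with edgeR 4.0.16 (R 4.3.3): TMM normalization, filterByExpr (14950 genes), robust quasi-likelihood F test, two-sided, in 1 model of 4 groups with 8 residual degrees of freedom. An adjusted p (Benjamini-Hochberg) below 0.05 made a call; the SE is the absolute log2 fold change over the square root of F. CPM are counts scaled to a common library size after TMM. The fit was tested on simulated counts without a GC trend or a library set apart. That test does not cover those features of the data. Alternatives were RLE normalization, no filter, DESeq2 1.42.0, fits of the compared groups alone, a replicate block, GC and length offsets, and each library left out. GC content is that of the longest GENCODE transcript.

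Members and lists were chosen with earlier results of these data known. Values per library are given for members called at least once, the 5 highest and 3 lowest by FPKM, 10 that carry a role, and the 3 largest rises and falls in BITC+ZA against vehicle; other members by range, except that CMPK2 and IFIT5 were added after their values were seen. Pathway genes are named where called, except that some results are not reported here.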

Additional observations from a re-analysis of the deposited data

Results flagged for a closer look

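For 1 member and 2 other pathway genes named here the change under ZA differed with and without BITC, by the test of the interaction in the edgeR fit. Calls for the interaction made up 2.33% of the 43 members and 4.0% of the 75 pathway genes, beside 2.84% of all genes. The value is the log2 change of ZA in the presence of BITC minus that in its absence, equal to the change under both less the sum of the changes under each. For B2M it was −0.24 (adjusted p = 0.0282), with BITC+ZA at 549 ± 6.05 CPM, ZA at 628 ± 29.4, BITC at 615 ± 15.1 and vehicle at 595 ± 3.18 (SD, n = 3 each, exact values by library in the report). For PSME1 it was −0.29 (adjusted p = 0.0414), with 107, 110.4 and 113 CPM in BITC+ZA libraries, 134, 124 and 119.7 in ZA libraries, 134, 132 and 126 in BITC libraries and 115, 121 and 129 in vehicle libraries. For RNF213, a large ubiquitin ligase, it was 0.40 (adjusted p = 0.00597), with 188, 194 and 198 CPM in BITC+ZA libraries, 154, 149 and 170.2 in ZA libraries, 154, 169 and 163 in BITC libraries and 166, 180.2 and 176 in vehicle libraries. After GC and length correction RNF213 stood at 0.04 (adjusted p = 0.754), while B2M (−0.21, adjusted p = 0.00348) and PSME1 (−0.30, adjusted p = 0.0230) were called. Of 19 alternatives, 12 called B2M, 12 PSME1 and 16 RNF213.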

How the results depend on the processing

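Counts of called members for BITC against vehicle, ZA against vehicle, BITC+ZA against vehicle, BITC+ZA against BITC, BITC+ZA against ZA, ZA against BITC and the interaction were 1, 2, 3, 9, 7, 10 and 1. With each library left out in turn they ranged from 0 to 6, 0 to 12, 3 to 10, 1 to 16, 4 to 13, 3 to 16 and 0 to 3, and those of other pathway genes (0, 0, 1, 18, 9, 10 and 3) from 0 to 8, 0 to 15, 1 to 12, 4 to 25, 4 to 17, 3 to 30 and 1 to 8. The share of all genes called also moved as libraries were left out. In the same order it ran from 0.667 to 9.79%, 0.00655 to 16.3%, 1.89 to 14.6% and 3.43 to 26.9%. For the last 3 it ran from 2.41 to 12.7%, 2.49 to 29.6% and 0.627 to 6.03%. Other counts that moved by over 1.5 times follow in the same order of comparisons. With the compared groups alone, members were 6, 0, 13, 16, 2 and 2, and pathway genes moved to 6 (BITC against vehicle), 19 (BITC+ZA against vehicle), 1 (BITC+ZA against ZA) and 0 (ZA against BITC). With GC and length correction members were 4 (BITC against vehicle), 8 (BITC+ZA against vehicle), 5 (BITC+ZA against BITC), 6 (ZA against BITC) and 4 (interaction), and pathway genes 1 (ZA against vehicle) and 9 (BITC+ZA against vehicle). With the replicate block added to that correction members were 4, 1, 7, 5, 6 and 4 for BITC, ZA and BITC+ZA against vehicle, BITC+ZA against BITC, ZA against BITC and the interaction, and pathway genes 9 for BITC+ZA against vehicle and 5 for the interaction. Left without ZA library 1 as well as corrected, chosen after seeing the data, members were 4 (BITC against vehicle), 11 (BITC+ZA against vehicle), 11 (BITC+ZA against ZA) and 5 (interaction), and pathway genes 1, 4 and 12 for BITC, ZA and BITC+ZA against vehicle, 16 for ZA against BITC and 6 for the interaction. DESeq2 gave 2 members for BITC against vehicle, 4 for ZA against vehicle and 3 for the interaction, and 2 (ZA against vehicle) and 5 (interaction) pathway genes; no filter gave 3, 5 and 2 members for BITC against vehicle, BITC+ZA against vehicle and the interaction, and 2 (ZA against vehicle) and 5 (interaction) pathway genes. Of all genes tested, in the order of comparisons given first, the calls under these alternatives were 9.77, 0.00699, 19.4, 27.7, 1.59 and 1.27% with the compared groups alone (no interaction), 4.21, 1.91, 8.91, 12, 12.3, 9.25 and 5.69% with the correction, 3.89, 1.62, 8.73, 11.9, 11.7, 8.84 and 5.16% with the block as well, 8.35, 5.90, 13.4, 16.9, 12.9, 16.6 and 5.94% with the correction and without ZA library 1, 3.47, 5.03, 6.80, 18.9, 10.1, 15.1 and 8.83% by DESeq2, 1.80, 1.44, 3.33, 9.01, 4.41, 6.77 and 2.58% with no filter and 2.11, 1.46, 5.63, 16.9, 7.77, 11.9 and 3.77% with the block alone. The causes were not tested.

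Whether replicate numbers paired the libraries was not settled. The correlation of same-numbered libraries ran from −0.232 to 0.187 and was over 0.1 in 7 of 18 pairs. Differently numbered libraries were not set beside them. Over all genes the replicate block gave more calls in every comparison, such as 5.63% against 4.90% in BITC+ZA against vehicle. The replicate block alone moved the members called for the interaction to 2 and the pathway genes called for ZA against vehicle to 1. Values that changed sign were those of HELZ2 and PML in BITC+ZA against BITC and LY6E in ZA against BITC: −0.040, −0.070 and −0.049 with GC and length correction, −0.040, −0.070 and −0.050 with the replicate block as well, and −0.040, −0.071 and −0.12 with that correction and without ZA library 1, where the interaction of IFIT3 was 0.047. In that fit LY6E was called lower in ZA against BITC (adjusted p = 0.0206), whereas the fit of all 12 libraries called it higher (0.18, adjusted p = 0.0310). With the correction the median of all genes in BITC+ZA against BITC was −0.034, so HELZ2 at −0.040 is not set apart from it. IFIT1 in ZA against vehicle, at 0.01, was −0.0020 with those groups alone and −0.049 to 0.051 with each library left out. IFIT3 there ran from −0.15 to 0.012 and MX1 in BITC+ZA against vehicle from −0.18 to 0.022. At 2 to 34 reads per library, OAS1, RSAD2, IFI44L, IRF9 and USP18 could show no change of the size seen in the IFIT genes.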
